A study of Mus musculus with 30 samples.

Results

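Lungs of mouse embryos at E13.5 (E, days of embryonic development) with and without a conditional deletion of Myocd were compared by RNA sequencing, across every gene with enough reads to test. Members were chosen by their labels: 5 mutant and 5 control libraries, 10 of the 30 in the series, each made from the right and left lobes of 1 lung. Mutants carried 2 floxed Myocd alleles together with a Tbx4 transgene that makes rtTA, an activator switched on by doxycycline, and a Cre gene under the control of rtTA (Tbx4rtTAi/+; tetOcrei/+; MyocdF/F). Controls 2 to 5 carried the same transgenes with 1 floxed and 1 unchanged allele (MyocdF/+), so Cre could be made in them as well, while control 1 was labelled MyocdF/F with no transgenes. By its title, the series concerns airway smooth muscle and its part in airway size, tracheal cartilage and branching of the epithelium. The E18.5 lungs and tracheas of the same series (4 controls and 6 mutants each, right lobes for the lung, controls MyocdF/+ and mutants MyocdF/F with the same transgenes) are used below only to set the E13.5 changes beside a later stage.

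Myocardin, the product of Myocd, is a coactivator of the serum response factor SRF. SRF binds a short DNA element, the CArG box, in front of actin, myosin and other muscle genes, and myocardin bound to SRF switches on the contractile programme of smooth muscle and heart. In the embryonic lung, smooth muscle forms from mesenchyme around the growing airways while the epithelial tips branch into the surrounding tissue. Tbx4 is expressed in that mesenchyme, and the Tbx4-driven transgene limits the deletion to cells that have used it, so whole-lung RNA holds many cell types that were never targeted. In such bulk samples fewer cells of a type and less RNA per cell cannot be told apart.

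Total counts ran from 17.4 to 28.5 M per library. Lung markers were present in all 10: 6 epithelial markers (Nkx2-1, Sftpc, Sox9, Shh, Cdh1, Epcam) summed to 584 to 734 counts per M counts (CPM) in controls and 552 to 706 CPM in mutants, and 6 mesenchymal markers (Tbx4, Tbx5, Foxf1, Fgf10, Wnt2, Tcf21) to 801 to 1012 CPM and 755 to 938 CPM. Xist and Y-linked genes read 1 female control and 2 female mutants. Mutant 1 stood apart from the other libraries. It was the shallowest, lay at 60.2 on the first principal component (34.5% of the variance) against -17.6 to 5.51 for the other 9, and read genes with under 1000 exon bases higher (median log2 difference from the other libraries 0.67 over 243 genes, -0.16 to 0.04 in the other 9). The calls are therefore also given without mutant 1 or control 1, as are some of the list results. Myocd itself was 18.8, 10.2, 15.9, 10.1 and 10.4 CPM in controls 1 to 5 and 7.41, 13.2, 6.73, 12.8 and 13.1 CPM in mutants 1 to 5. The groups overlapped, and reads from exons outside the deleted part still count, so the genotype labels cannot be checked from them.

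Of 16486 genes tested, 34 passed the edgeR quasi-likelihood test at an adjusted p of 0.05 (0.206%). In mutants 31 of these fell (0.188%) and 3 rose (0.0182%). The contractile genes of smooth muscle were the list with the most falls (5), and 20 of the 31 belonged to none of the 35 gene lists examined. They included the adenosine-producing enzyme Nt5e, the calcium-handling proteins Jph2 and Slc24a3, the extracellular glycoprotein Emilin3, the scavenger receptor Scara5 and the transcription factor Mycl. Over all tested genes the median log2 fold change was 0.01 and 45.9% of genes lay below 0. TMM scaling centres most genes near 0, so fold changes are relative to that centre and a shift common to all genes would not be seen. The biological coefficient of variation was 0.14, and 69 genes had a log2 fold change beyond 1 in size. The called genes lay on 18 chromosomes. On chromosome 11, which carries Myocd, 1 of 1319 tested genes passed.

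**Figure D1:**
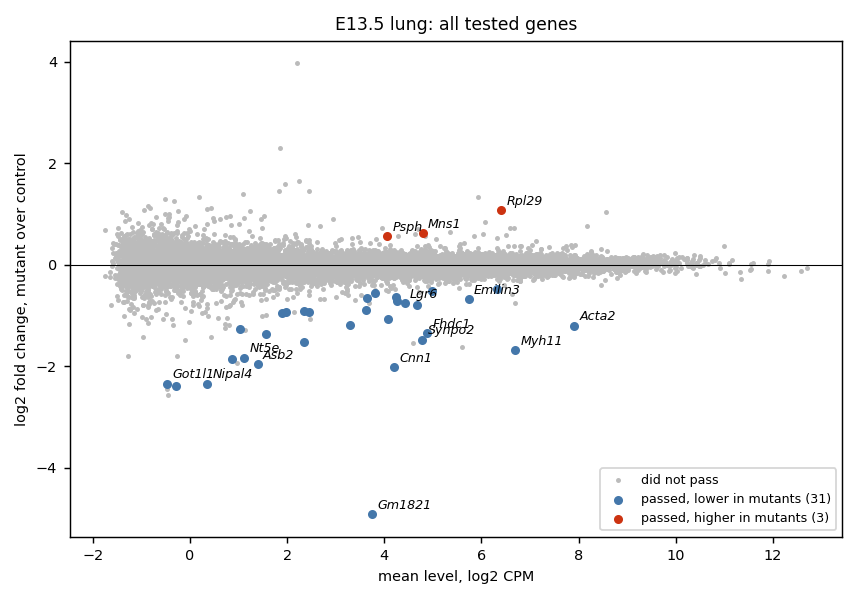
Each point is 1 of the 16486 genes tested in E13.5 lung, with its mean level over the 10 libraries on the x axis (log2 CPM) and its fitted log2 fold change, mutant over control, on the y axis. The 31 genes that passed lower (blue) reach from a log2 fold change of -0.47 to -4.91, and the 3 that passed higher (red) lie above 0.

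In 30 of the 31 fallen genes no mutant library reached the lowest control, against 0.74% of all tested genes with such a separation downwards. The exception was Gm1821, described below. All 3 risen genes separated as well, against 0.376% of tested genes upwards. Both counts come from the contrast that chose the genes and only describe them. Falls were at least 2-fold in 17 genes and at least 4-fold in 5, and 9 of the fallen genes were under 5 CPM in controls, where few reads carry the value.

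Among contractile genes, 5 of 28 tested members fell and none rose: Synpo2, Acta2, Lmod1, Cnn1 and Myh11. The median over the list was -0.26 (log2), 26 of its 28 members lay below 0, and DESeq2, which called 0.497% of all tested genes, called 7. Synpo2 (chromosome 3, 123076519 to 123236149), which bundles actin in muscle, had the lowest adjusted p of all genes and stood at 43.3, 38.7, 40.0, 41.4 and 39.4 CPM in controls 1 to 5 and 11.1, 12.8, 15.1, 14 and 19.8 CPM in mutants 1 to 5. Mutants reached at most 19.8 CPM and controls were at least 38.7 CPM, and the log2 fold change was -1.47 (adjusted p 0.00111, SE 0.127). Acta2, smooth muscle actin, stood at 339, 353, 279.8, 355 and 336 CPM in controls 1 to 5 and 158, 93.2, 147, 144 and 183 CPM in mutants 1 to 5, with a log2 fold change of -1.20 (adjusted p 0.0065, SE 0.147). Myh11, the smooth muscle myosin heavy chain, stood at 206, 119.7, 157, 154 and 149 CPM in controls 1 to 5 and 42.3, 32.1, 36.5, 39.8 and 94 CPM in mutants 1 to 5. Mutant 5 lay nearest to the lowest control, control 2, and the log2 fold change was -1.68 (adjusted p 0.0252, SE 0.269). Mutant 5 was the highest mutant in Cnn1 as well, and in 20 of the 31 fallen genes. Myl9, the myosin regulatory light chain, was 130.2 ± 13 CPM in controls and 77.5 ± 18.4 CPM in mutants (SD, n = 5 each) without passing (-0.75 (adjusted p 0.062, SE 0.139)). Tagln, a common smooth muscle marker, was read at only 1.96 to 2.93 CPM in controls and 0.838 to 2.37 CPM in mutants and gave no call.

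CArG boxes, the element that SRF binds, were looked for in the 250 bases before RefSeq starts of the fallen genes. RefSeq promoters (GRCm38.p6) were matched for 17 of the 29 named fallen genes. An exact CArG box, on either strand, stood in 1 of the 17 (5.88%) against 1.42% of the 11701 tested genes with a promoter. With 1 of the 6 core bases allowed to differ, 4 of 17 held a match (23.5%) against 9.44%. The 4 promoters are shown 5′ to 3′ with the matches in capitals. They are Asb2 (chr12:103356002-103356251, minus strand), with an exact box that begins 64 bases before the start, Fhdc1 (chr3:84479492-84479741, minus strand), with a looser match that ends at the start, Acta2 (chr19:34255374-34255623, minus strand), with looser matches 84 and 34 bases before it, and Jph2 (chr2:163397994-163398243, minus strand), with a looser match 73 bases before it.
Asb2: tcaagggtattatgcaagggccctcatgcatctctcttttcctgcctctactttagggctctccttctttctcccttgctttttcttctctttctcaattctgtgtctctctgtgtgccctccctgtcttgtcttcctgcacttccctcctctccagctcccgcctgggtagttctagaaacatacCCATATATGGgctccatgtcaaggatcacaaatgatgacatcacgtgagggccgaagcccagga
Fhdc1: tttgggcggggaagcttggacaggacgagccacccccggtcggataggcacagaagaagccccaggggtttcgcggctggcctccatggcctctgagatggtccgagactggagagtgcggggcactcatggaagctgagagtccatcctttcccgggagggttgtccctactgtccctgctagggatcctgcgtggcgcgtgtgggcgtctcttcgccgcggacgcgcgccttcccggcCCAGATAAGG
Acta2: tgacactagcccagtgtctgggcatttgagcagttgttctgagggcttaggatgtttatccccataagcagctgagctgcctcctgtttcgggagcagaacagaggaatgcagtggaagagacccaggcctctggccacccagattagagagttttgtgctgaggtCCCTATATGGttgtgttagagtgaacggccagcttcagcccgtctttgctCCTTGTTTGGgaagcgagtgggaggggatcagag
Jph2: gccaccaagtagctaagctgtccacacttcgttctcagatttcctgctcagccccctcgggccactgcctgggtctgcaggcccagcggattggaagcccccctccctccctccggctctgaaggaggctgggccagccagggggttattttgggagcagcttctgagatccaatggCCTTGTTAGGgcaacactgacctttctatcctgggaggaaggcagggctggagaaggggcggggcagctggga
The Fhdc1 window lies inside the annotated gene (chromosome 3, 84442198 to 84480429), in front of a RefSeq start within it. A match is a description of these letters and not a bound site.

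Of the fallen genes with a match, Asb2, Fhdc1 and Jph2 lie outside the contractile list. They were picked from genes that had already fallen, so the matches do not show which genes fall. Asb2 (chromosome 12, 103321142 to 103356001, GRCm38 as for all positions here) codes for the substrate-binding part of a ubiquitin ligase that removes filamins, which cross-link actin. It stood at 4.43, 3.99, 3.59, 4.69 and 4.26 CPM in controls 1 to 5 and 0.771, 0.964, 0.857, 0.786 and 1.94 CPM in mutants 1 to 5. Mutant 5 was the highest mutant and still below the lowest control, control 3, and the log2 fold change was -1.96 (adjusted p 0.0065, SE 0.232). Fhdc1 (chromosome 3, 84442198 to 84480429), a formin that acts on actin and microtubules, stood at 41.4, 41, 45, 42.8 and 40.4 CPM in controls 1 to 5 and 9.66, 16.5, 20.2, 14.9 and 21.4 CPM in mutants 1 to 5. Its controls spanned only 40.4 to 45 CPM, and the log2 fold change was -1.34 (adjusted p 0.0065, SE 0.164). Jph2 (chromosome 2, 163336242 to 163397993), junctophilin, which holds the calcium store of muscle close to the surface membrane, stood at 25, 20.03, 22.7, 25.4 and 25.4 CPM in controls 1 to 5 and 13.2, 13.1, 13.8, 14.5 and 18.1 CPM in mutants 1 to 5. The highest mutant, mutant 5, lay below the lowest control, control 2, and the log2 fold change was -0.70 (adjusted p 0.0152, SE 0.105).

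Slc24a3, Rbm24, Bvht and Nipal4 fell as well. Slc24a3 (chromosome 2, 145167754 to 145642166), a sodium, potassium and calcium exchanger, stood at 18.4, 15.7, 13.54, 16.4 and 15.7 CPM in controls 1 to 5 and 6.76, 9.01, 8.32, 7.82 and 11.1 CPM in mutants 1 to 5 (-0.89 (adjusted p 0.0133, SE 0.128)). Rbm24, an RNA-binding protein that controls splicing in muscle, ranged from 4.47 to 6.02 CPM in controls and 1.84 to 3.26 CPM in mutants (-0.93 (adjusted p 0.0259, SE 0.149)). Bvht, a long noncoding RNA known from heart development, ranged from 13.8 to 16.8 and 8.67 to 11.7 CPM (-0.65 (adjusted p 0.0217, SE 0.101)). Nipal4, a membrane protein related to magnesium transporters, was 2.16 ± 0.375 CPM in controls and 0.408 ± 0.313 CPM in mutants (SD, n = 5 each), with a log2 fold change of -2.34 (adjusted p 0.0217, SE 0.366). Markers of heart muscle were read beside these genes. Myh6, Myl7 and Nppa summed to 3.31 to 6.90 CPM in controls and 5.78 to 21.8 CPM in mutants, with Nppa at or near 0 in every library. The sum was 21.8, 5.78, 6.94, 16.5 and 19.4 CPM in mutants 1 to 5, with mutant 2 inside the control range. The difference in the summed markers did not pass (two-sided exact permutation p 0.0873, adjusted p 0.619 over 12 library measures). Of 15 tested heart and skeletal muscle genes, 12 lay above 0 and 3 below, with a median of 0.42 (0.17 to 0.77 over the alternatives). By edgeR 0 of the 15 passed, by DESeq2 1, and 6 had an unadjusted p under 0.05, against 3.57% of all tested genes. The part of heart muscle RNA in these results was not tested. Cardiac actin Actc1, which is also made in young smooth muscle, stood at 39.5, 21.2, 27.2, 48 and 44.1 CPM in controls 1 to 5 and 13.52, 6.41, 7.02, 10.1 and 24.8 CPM in mutants 1 to 5 (-1.54 (adjusted p 0.222, SE 0.352)). DESeq2 called Actc1 (adjusted p 0.0445) and edgeR did not.

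Of 27 tested actin regulators and adhesion genes, 2 fell and none rose, Fhdc1 and Tgfb1i1. Tgfb1i1, a focal adhesion adaptor, was 92.5 ± 6.03 CPM in controls and 66.6 ± 7.02 CPM in mutants (SD, n = 5 each), a log2 fold change of -0.47 (adjusted p 0.0298, SE 0.0784). Psd (chromosome 19, 46312087 to 46327156), which activates the small GTPase ARF6, stood at 13.1, 17.7, 10.8, 13.9 and 13.1 CPM in controls 1 to 5 and 4.74, 5.87, 6.49, 4.72 and 8.05 CPM in mutants 1 to 5. No mutant reached the lowest control, control 3, and the log2 fold change was -1.19 (adjusted p 0.0108, SE 0.166). Nrbp2, a pseudokinase, was 37 ± 2.2 CPM in controls and 26.1 ± 3.13 CPM in mutants (SD, n = 5 each) (-0.51 (adjusted p 0.031, SE 0.0844)).

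Emilin3, Crispld2, Chrdl1, Vwa1 and Nptx2, which code for matrix or secreted proteins and were put together after they were called, fell. Emilin3 (chromosome 2, 160906437 to 160912328), an extracellular glycoprotein of the elastin-associated emilin family, stood at 63.9, 66.6, 68.1, 63.9 and 65.1 CPM in controls 1 to 5 and 32.5, 42.1, 45.9, 36.2 and 48.3 CPM in mutants 1 to 5. The controls lay close together at 63.9 to 68.1 CPM, no mutant exceeded 48.3 CPM, and the log2 fold change was -0.67 (adjusted p 0.0133, SE 0.0981). Emilin3 is not in the list of elastic fibre genes, of which 0 of 19 tested members passed by edgeR or DESeq2, 1 had an unadjusted p under 0.05, and their median was -0.06. Crispld2 (chromosome 8, 119992438 to 120052793), a secreted protein of lung mesenchyme, stood at 21.3, 23.6, 22.6, 22.2 and 23.8 CPM in controls 1 to 5 and 7.41, 12.2, 13.9, 8.25 and 12.5 CPM in mutants 1 to 5, a log2 fold change of -1.06 (adjusted p 0.0128, SE 0.151). Chrdl1 (chromosome X, 143285674 to 143394262), a secreted inhibitor of BMP signals, stood at 6.76, 8.71, 6.71, 6.86 and 6.74 CPM in controls 1 to 5 and 3.91, 5.15, 3.47, 3.07 and 3.3 CPM in mutants 1 to 5, a log2 fold change of -0.92 (adjusted p 0.0252, SE 0.148). It was the only 1 of 23 tested BMP pathway genes to pass, and the BMP targets Id2 (119 ± 8.43 CPM in controls and 113 ± 18 CPM in mutants (SD, n = 5 each)) and Id3 (166 ± 13.1 CPM in controls and 184 ± 46 CPM in mutants (SD, n = 5 each)) did not. Vwa1, a matrix protein of basement membranes, ranged from 4.35 to 5.23 CPM in controls and 2.25 to 3.14 CPM in mutants (-0.96 (adjusted p 0.0065, SE 0.118)). In Vwa1, 25.2% of the exon sequence is shared with an opposite-strand gene, so its counts are uncertain. Nptx2, a secreted pentraxin, was 2.87 ± 0.567 CPM in controls and 0.776 ± 0.388 CPM in mutants (SD, n = 5 each) (-1.86 (adjusted p 0.0133, SE 0.27)).

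Nt5e, Scara5, Pxylp1 and Lgr6 also fell. Nt5e (chromosome 9, 88327197 to 88372092) codes for CD73, the surface enzyme that makes adenosine from AMP. It stood at 4.01, 2.83, 2.36, 4.35 and 3.43 CPM in controls 1 to 5 and 0.949, 0.629, 1.02, 0.679 and 1.48 CPM in mutants 1 to 5, a separation with low counts and a log2 fold change of -1.83 (adjusted p 0.00938, SE 0.247). Scara5 (chromosome 14, 65666403 to 65764826), a scavenger receptor that takes up ferritin, stood at 34.8, 30.6, 28.9, 33.8 and 34.9 CPM in controls 1 to 5 and 16, 22, 18, 15.8 and 21.9 CPM in mutants 1 to 5, a log2 fold change of -0.80 (adjusted p 0.00938, SE 0.108). Pxylp1, a phosphatase that acts on the xylose of proteoglycan linkers, had levels of 15.6 to 17.6 CPM in controls and 10.6 to 12.1 CPM in mutants (-0.56 (adjusted p 0.0065, SE 0.0676)). Lgr6, an R-spondin receptor of airway smooth muscle progenitors, ranged from 21.6 to 29.5 and 13.51 to 19 CPM (-0.75 (adjusted p 0.0152, SE 0.112)). It was the only WNT pathway gene of 32 tested to pass.

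The transcription factors Mycl and Npas4 fell. Mycl (chromosome 4, 122995652 to 123002485), a MYC family factor, stood at 21.5, 25.2, 21.1, 23.8 and 23.6 CPM in controls 1 to 5 and 10.8, 15.5, 17.5, 15.8 and 14.2 CPM in mutants 1 to 5, a log2 fold change of -0.64 (adjusted p 0.048, SE 0.112). Npas4, a factor best known from neurons, was 2.88 ± 0.532 CPM in controls and 1.19 ± 0.148 CPM in mutants (SD, n = 5 each) (-1.27 (adjusted p 0.00756, SE 0.16)). Got1l1, a relative of aspartate aminotransferase, was 1.21 ± 0.206 CPM in controls and 0.233 ± 0.086 CPM in mutants (SD, n = 5 each), a log2 fold change of -2.34 (adjusted p 0.00562, SE 0.249) on few reads. The pseudogenes BC106175, Gm11868 and Gm1821 also passed lower. Gm1821 stood at 30.3, 34, 31.7, 0.675 and 33.5 CPM in controls 1 to 5 and 0.83, 0.922, 0.939, 0.965 and 0.645 CPM in mutants 1 to 5. Control 4 read like the mutants while the other controls were at 30.3 to 34.0 CPM, and the same gene had log2 fold changes of -4.89 in the lung and -4.93 in the trachea at E18.5.

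**Figure D2:**
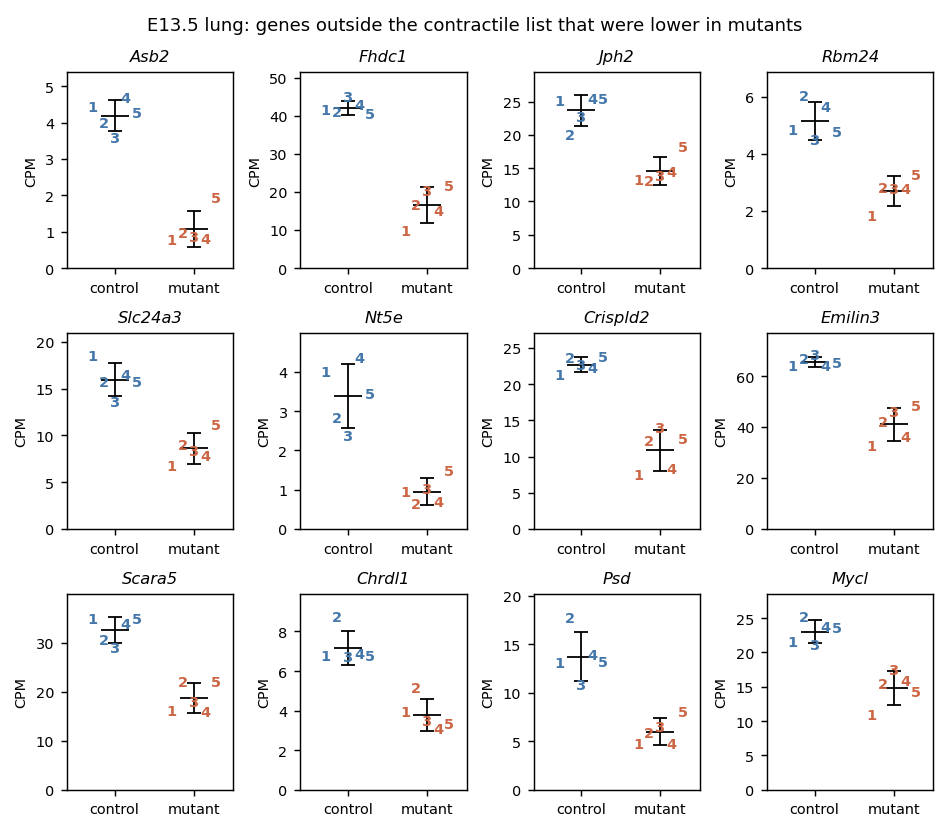
Each panel shows 1 gene outside the contractile list that passed lower in E13.5 mutant lung, in CPM on an axis from 0. Digits are the libraries (controls 1 to 5 blue, mutants 1 to 5 orange) and the bars are the mean ± SD (n = 5), and in these 12 genes no mutant reaches the lowest control.

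The fall was seen in each mutant library. Relative to the control mean of each gene, the median level of the 31 fallen genes was 41.1%, 42.8%, 47.9%, 37.2% and 53.1% in mutants 1 to 5, and 91.9% to 104% in the 5 controls. For the 5 contractile members the medians in mutants 1 to 5 were 27.3%, 24.01%, 34.3%, 27.1% and 53.1%, and for the other 26 they were 42.0%, 53.5%, 49.6%, 44.4% and 53.7%. Mutant 5 thus stood higher than the other mutants in the contractile genes and next to mutant 2 in the rest. These values come from the genes' own contrast and carry no test.

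The 3 genes that rose were Psph, Mns1 and Rpl29. Psph (chromosome 5, 129765558 to 129787449), the phosphatase that completes serine synthesis, stood at 12.8, 13.4, 13.54, 13.8 and 13.4 CPM in controls 1 to 5 and 21.7, 18.4, 20.7, 17.6 and 20.3 CPM in mutants 1 to 5. The controls lay close together at 12.8 to 13.8 CPM, no mutant was below 17.6 CPM, and the log2 fold change was 0.56 (adjusted p 0.00863, SE 0.0732). Mns1, a protein of cilia and flagella, stood at 21.5, 21, 21.8, 21.2 and 23.2 CPM in controls 1 to 5 and 28.5, 34.3, 34.4, 36.7 and 33.4 CPM in mutants 1 to 5, a log2 fold change of 0.62 (adjusted p 0.0065, SE 0.0731), but 53.0% of its exon sequence is shared with an opposite-strand gene and these reads are unstranded. Rpl29, a ribosomal protein, stood at 57.4, 58.8, 50.2, 53.9 and 52.7 CPM in controls 1 to 5 and 70.5, 123, 135, 123 and 124 CPM in mutants 1 to 5 (1.08 (adjusted p 0.00863, SE 0.143)). It has many processed copies in the genome, so its counts are uncertain, and mutant 1 lay far below the other mutants.

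Genes of amino acid supply, to which Psph belongs, are switched on by the transcription factor ATF4 when amino acids are short. All 23 tested members of the list of serine synthesis and amino acid stress had a log2 fold change above 0, with a median of 0.39 against 0.01 over all genes, but only Psph passed the edgeR test. At an unadjusted p under 0.05 there were 17 of 23, against 3.57% of all tested genes. DESeq2 called 7 of the 23, all higher, against 0.14% of all tested genes called higher by it. Without mutant 1 edgeR called 3 of the 23 and without mutant 4 it called 4. Over the alternatives the count ran from 0, with the replicate number as a block, to the 7 of DESeq2. The median stayed between 0.35 and 0.46 under every alternative tried. The list's mean score per library (mean of centred log2 levels) was -0.30 to -0.22 in the controls, and -0.12, 0.51, 0.24, 0.03 and 0.68 in mutants 1 to 5. The groups did not overlap on this score, with mutants 2, 3 and 5 farthest from the controls. The list's members were chosen with earlier results of these data known, so its shares, median and scores describe it and are no test of the list.

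Single members differed in which mutants were high. Asns, asparagine synthetase, stood at 32.3, 35.4, 40.5, 31.8 and 34 CPM in controls 1 to 5 and 38.9, 119, 120.4, 49.6 and 109 CPM in mutants 1 to 5. Mutants 2, 3 and 5 were at 109 to 120.4 CPM while mutant 1 lay within the controls, and the log2 fold change of 1.33 (adjusted p 0.154, SE 0.283) did not pass. Mthfd2, a mitochondrial enzyme of one-carbon metabolism, stood at 49.6, 45.5, 47.5, 49.7 and 48.4 CPM in controls 1 to 5 and 64.9, 106, 82.8, 64.1 and 117 CPM in mutants 1 to 5, with no overlap (0.85 (adjusted p 0.057, SE 0.155)). Chac1, which degrades glutathione and is a sensitive ATF4 target, was at 0.506 to 0.591 CPM in controls and 0.356, 8.59, 1.02, 4.82 and 28.5 CPM in mutants 1 to 5. Phgdh, the first enzyme of serine synthesis, stood at 79.2, 82.7, 87.5, 75 and 81.2 CPM in controls 1 to 5 and 102, 110.3, 124, 85.9 and 106 CPM in mutants 1 to 5 (0.38 (adjusted p 0.222, SE 0.0871)). Slc7a5, an amino acid transporter, was 71.9, 75.5, 67.8, 75.1 and 73.1 CPM in controls 1 to 5 and 50.6, 147, 163, 84.5 and 158 CPM in mutants 1 to 5 (0.73 (adjusted p 0.998, SE 0.256)). Atf4 itself was 199.7, 211, 174, 202 and 202 CPM in controls 1 to 5 and 282, 202, 199, 266 and 342 CPM in mutants 1 to 5, and Psat1, the second enzyme of serine synthesis, was 275 ± 26.2 CPM in controls and 333 ± 59.7 CPM in mutants (SD, n = 5 each). Neither passed. Asns, Chac1, Phgdh and Slc7a5 were picked from the list after their values were seen.

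**Figure D3:**
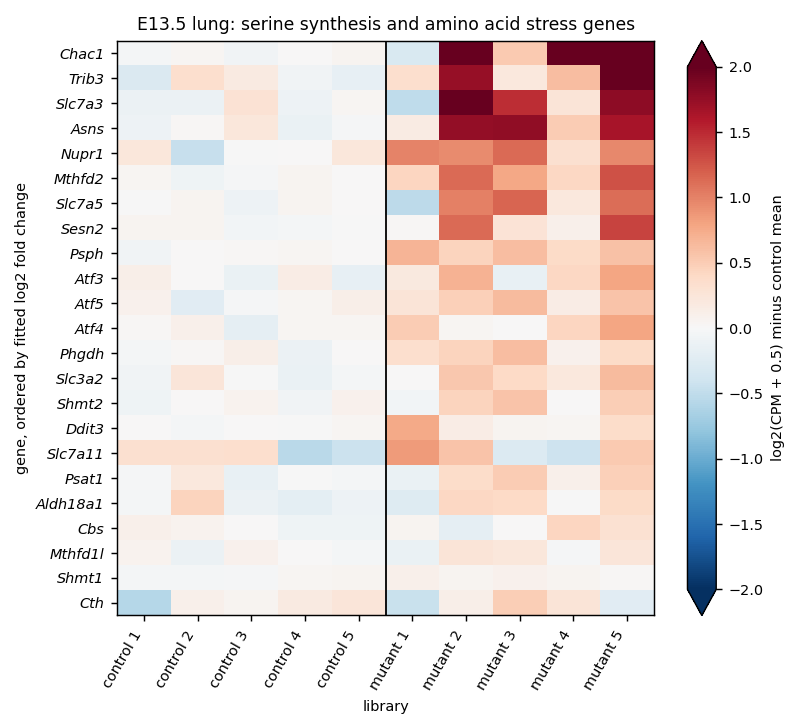
Rows are the 23 tested genes of serine synthesis and amino acid stress, ordered by fitted log2 fold change, and columns are the 10 libraries. Colour is log2(CPM + 0.5) minus the gene's control mean, capped at 2 in each direction. Mutants 2, 3 and 5 are red for most genes from Chac1 to Psph, and mutants 1 and 4 are paler.

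Among the 10 genes nearest to the threshold on its far side (adjusted p 0.0518 to 0.0767), 4 were higher in mutants, and all of these belong to the same field. Besides Mthfd2 they were the aminoacyl-tRNA synthetases Yars, Gars and Cars, enzymes that load transfer RNA with amino acids. Yars stood at 122, 111, 117, 113 and 119 CPM in controls 1 to 5 and 163, 168, 179, 126 and 165 CPM in mutants 1 to 5 (0.46 (adjusted p 0.0574, SE 0.0844)). Gars was at 183 to 192 CPM in controls and 204 to 265 CPM in mutants (0.37 (adjusted p 0.062, SE 0.0678)), and Cars at 70.1 to 75.4 and 77.3 to 125 CPM (0.59 (adjusted p 0.0767, SE 0.112)). In each of the 3 the lowest mutant was mutant 4, which still lay above every control. The other 6 were lower in mutants. They were the muscle genes Myl9 and Pdlim3, the syntrophin Sntg2, the transcription factor Sox21, the chemokine scavenger Ackr2 and the neuropeptide gene Calcb. Calcb was 1.26 ± 0.576 CPM in controls and 0.209 ± 0.158 CPM in mutants (SD, n = 5 each) (-2.56 (adjusted p 0.0518, SE 0.456)), Pdlim3 was 7.51 ± 1.12 CPM in controls and 3.61 ± 1.16 CPM in mutants (SD, n = 5 each) (-1.06 (adjusted p 0.0767, SE 0.203)), and Sox21 was 1.96 ± 0.62 CPM in controls and 0.731 ± 0.185 CPM in mutants (SD, n = 5 each) (-1.41 (adjusted p 0.062, SE 0.262)).

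Few genes of the other signalling pathways passed. Over all tested genes 0.206% passed by edgeR and 3.57% had an unadjusted p under 0.05. At that edgeR share, lists this short can hold 0 calls, so 0 calls do not show that their members were unchanged. Of the tested members of the hedgehog (12), FGF (18), TGF-beta (18), Notch (15) and retinoic acid (16) pathways, 0 of 79 passed the edgeR test (2 at an unadjusted p under 0.05), and their medians lay between -0.10 and -0.02. The medians of the hedgehog, FGF and TGF-beta lists turned positive, to at most 0.01, when mutant 1 was left out with or without others or when only males were used. By DESeq2, 1 of the 79 passed, Aldh1a1, which is also in the airway stalk list. Gli1, the transcriptional target of hedgehog signals, was 201 ± 13 CPM in controls and 186 ± 33.3 CPM in mutants (SD, n = 5 each), and the FGF target Etv5 was 299 ± 28.5 CPM in controls and 288 ± 46.7 CPM in mutants (SD, n = 5 each). Of 10 tested genes for SRF and its cofactors 0 passed by edgeR or DESeq2 (2 at an unadjusted p under 0.05), and Srf was 121 ± 5.09 CPM in controls and 113 ± 9.52 CPM in mutants (SD, n = 5 each). Of 23 tested receptors and ion channels of airway muscle 0 passed by edgeR and 1 by DESeq2 (4 at an unadjusted p under 0.05, median -0.08). Of 17 stretch and YAP targets 0 passed by edgeR or DESeq2 (2 at an unadjusted p under 0.05, median -0.03).

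In the epithelium, distal tip genes had 0 of 18 past the test by edgeR or DESeq2 (1 at an unadjusted p under 0.05) and a median of -0.02, which was 0.01 in males alone. Airway stalk genes, the conducting airway behind the tip, had a median of -0.23 with 15 of 18 tested members below 0. Their median stayed between -0.32 and -0.18 under all alternatives. Sox2, the factor of the conducting airway, was at 13.9, 11.2, 13, 14.9 and 16.5 CPM in controls and 10.1, 6.5, 9.59, 9.4 and 10.4 CPM in mutants 1 to 5 (-0.59 (adjusted p 0.23, SE 0.137)). Aldh1a1, which makes retinoic acid, was 21.8 ± 2.84 CPM in controls and 15.7 ± 2.04 CPM in mutants (SD, n = 5 each) (-0.48 (adjusted p 0.243, SE 0.111)). DESeq2 called both of these (adjusted p 0.0123 and 0.0177) and edgeR neither. The stalk keratins Krt8 and Krt18 were 73.1 ± 8.25 CPM in controls and 76.6 ± 15.8 CPM in mutants (SD, n = 5 each), and 81 ± 5.95 CPM in controls and 89.6 ± 25 CPM in mutants (SD, n = 5 each), with mutant 1 the highest in both. Sox2 and Aldh1a1 were named after their values were seen.

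The other metabolic and housekeeping lists had medians between -0.16 and 0.13. Over all tested genes the median was 0.01, 0.206% passed by edgeR and 3.57% had an unadjusted p under 0.05. All 18 cholesterol synthesis genes lay below 0, with a median of -0.16 (-0.21 to -0.09 over the alternatives), and 0 passed by edgeR or DESeq2 (4 at an unadjusted p under 0.05). Their library scores overlapped (-0.07 to 0.31 in controls, -0.22 to -0.02 in mutants). Hypoxia and glycolysis genes had a median of -0.14 with 20 of 24 below 0, of which 0 passed by edgeR, 1 by DESeq2 and 7 at an unadjusted p under 0.05. Cell cycle genes had a median of 0.05 with 21 of 25 above 0, and 0 passed by edgeR, by DESeq2 or at an unadjusted p under 0.05. Cytosolic ribosomal proteins had a median of 0.13 with 25 of 26 above 0, and 1 rose, Rpl29. Their library score was 0.60 in mutant 1 and -0.14 to 0.07 in the other 9 libraries, and the median was -0.07 without mutant 1. Mitochondrially encoded genes made up 2.39 ± 0.186% of counts in controls and 2.13 ± 0.272% in mutants (SD, n = 5 each; two-sided exact permutation p 0.103, adjusted p 0.619). Endothelium (23 tested), pericytes and vascular smooth muscle (16), mesothelium (15), macrophages and leukocytes (18), collagens and basement membrane (26), and cartilage and perichondrium (18) had 0 of 116 members past the edgeR or DESeq2 test. Of the 116, 10 had an unadjusted p under 0.05, against 3.57% of all tested genes, and 4 of these were in cartilage and perichondrium. Medians of these lists lay between -0.10 and 0.08. Over the alternatives only that of cartilage and perichondrium kept its sign (0.02 to 0.11), and that of collagens and basement membrane ran from -0.15 to 0.04.

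**Figure D4:**
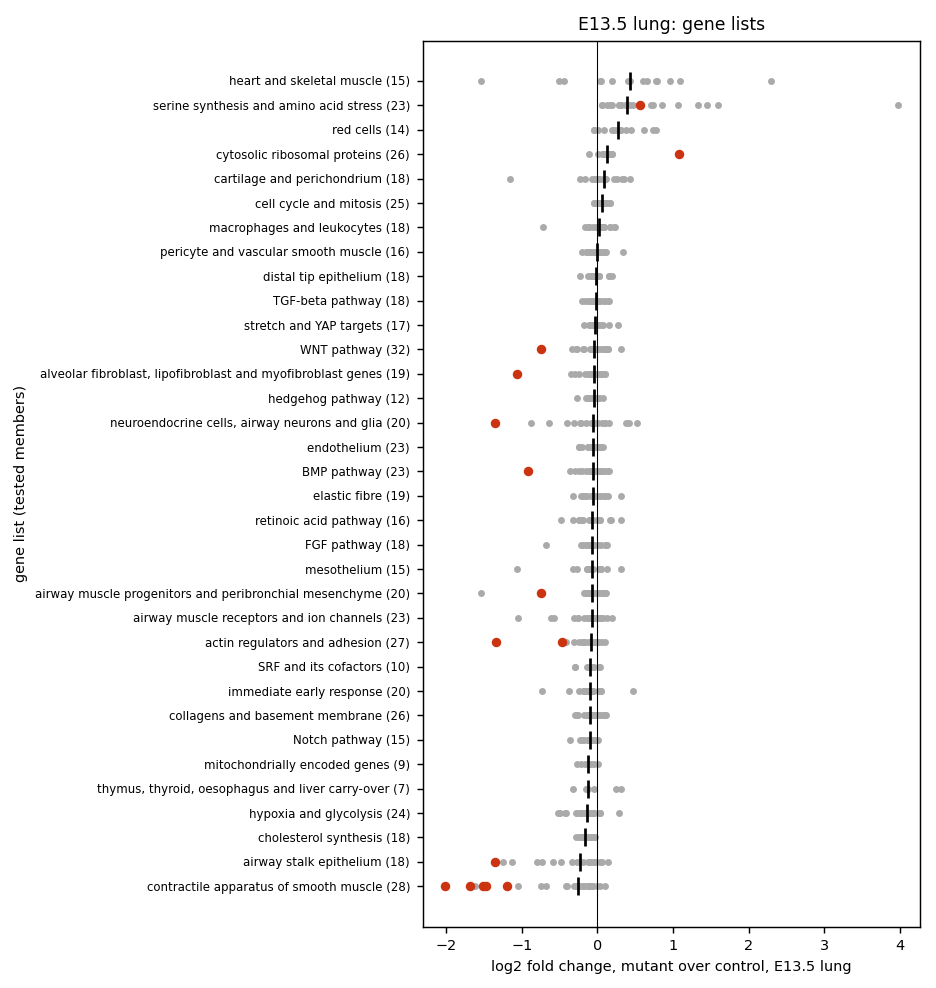
Each row is a gene list with its number of tested members, each point a member's log2 fold change, mutant over control, in E13.5 lung, and the black bar the list's median. Red points passed the edgeR test; the contractile list holds 5 of them at the left, and the amino acid stress list lies wholly to the right of 0.

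The later tissues were read for the same genes. Of the 31 fallen genes, 29 were tested in E18.5 lung. There 21 lay below 0 (48.7% of all genes did), and 4 passed lower, against 0.55% of all tested genes. Of 30 tested in E18.5 trachea, 23 lay below 0 (47.4% of all genes did) and 4 passed lower, against 0.0655%. Synpo2, Myh11 and Gm1821 passed in both, Mycl in the lung and Crispld2 in the trachea. The median log2 fold change of all 31 fallen genes was -1.19 at E13.5 (the contrast that chose them). It was -0.11 over the 29 tested in E18.5 lung and -0.54 over the 30 tested in the trachea. Mycl was lower by a like amount in both lung stages, at -0.64 (SE 0.112) and -0.64 (SE 0.110, adjusted p 0.00994), and was 0.11 (SE 0.123) in the trachea. Jph2 was 0.03 (SE 0.0896) in E18.5 lung and -0.9995 (SE 0.183, adjusted p 0.0728) in the trachea. Emilin3, at 65.5 CPM in E13.5 controls, was at 2.73 CPM in E18.5 lung controls and 77.0 CPM in the trachea.

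Whether the mutant effect differed between E13.5 and E18.5 lung was tested directly as an interaction over 20 libraries. Of 18639 genes, 5 passed (0.0268%): Acta2, Lgr6, Mns1, Nupr1 and Ccdc150. The 2 fallen genes among them, Acta2 and Lgr6, were the only genes lower at E13.5 past this test (0.0107%). The effect on Acta2 was more negative at E13.5 by 1.11 on the log2 scale (SE 0.173, adjusted p 0.00701). In E18.5 lung Acta2 was 104 to 132 CPM in controls and 96.7 to 121 CPM in mutants, with a log2 fold change of -0.08. For Lgr6 the difference was -1.26 (SE 0.228, adjusted p 0.0459), between a fall at E13.5 and 0.51 (adjusted p 0.387) at E18.5, and it passed in 4 of 13 alternatives. For Mns1 it was 1.27 (SE 0.150, adjusted p 0.000245), between a rise at E13.5 and -0.65 at E18.5, and it passed in all 13. Nupr1, a stress-response gene, was 1.81, 0.943, 1.48, 1.5 and 1.81 CPM in controls 1 to 5 and 3.44, 3.31, 3.84, 1.97 and 3.34 CPM in mutants 1 to 5 at E13.5. Its means at E18.5 were 79.4 CPM in controls and 59.9 CPM in mutants. By edgeR it passed at neither stage (1.07, adjusted p 0.0981, at E13.5 and -0.41, adjusted p 0.0817, at E18.5). The stage difference of Nupr1 was 1.47 (SE 0.227, adjusted p 0.00701). Ccdc150, named after its values were seen, was at most 4.28 CPM in any group and had a difference of 1.601 (SE 0.251, adjusted p 0.00701).

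**Figure D5:**
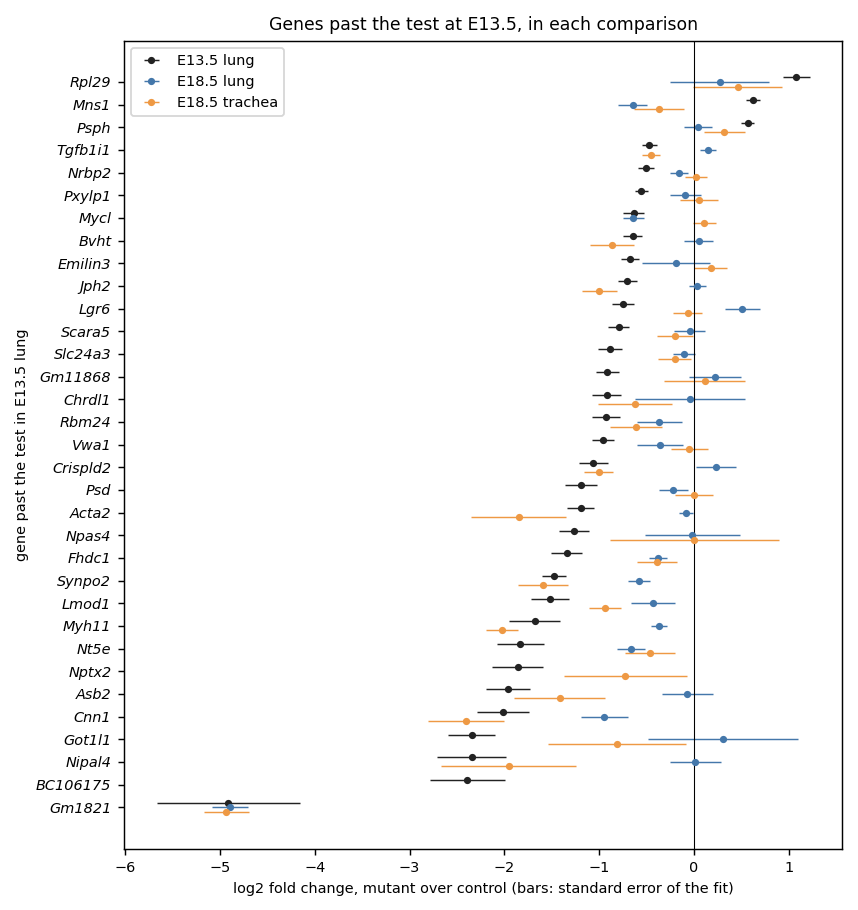
Rows are 33 of the 34 genes past the test at E13.5, ordered by their log2 fold change there, and the x axis is the log2 fold change, mutant over control, in E13.5 lung (black), E18.5 lung (blue) and E18.5 trachea (orange), with bars for the SE of the fit. Most blue points lie near 0. Myh11, Cnn1, Synpo2, Acta2, Nipal4 and Asb2 are among the genes that stay to the left in the trachea. Genes that change sides in E18.5 lung include Mns1, Lgr6, Got1l1 and Crispld2.

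The calls did not all rest on every library. With each of the 10 libraries left out in turn, 16 of the 34 calls held every time, among them Synpo2, Acta2, Asb2, Fhdc1, Nt5e, Scara5, Psd, Pxylp1, Vwa1, Npas4, Got1l1, Lmod1, Psph, Mns1 and Rpl29. Cnn1 lost its call without mutant 1 (log2 fold change over the left-out fits -2.43 to -1.87), and Crispld2 without control 5 (-1.17 to -0.96). Slc24a3 lost it without control 1, 4 or 5 or mutant 3 (-0.998 to -0.814), Emilin3 without control 1, 3, 4 or 5 (-0.74 to -0.60), and Nptx2 without control 3, 4 or 5 or mutant 2 or 3 (-2.22 to -1.72). Each of Lgr6, Jph2, Nipal4, Bvht, Chrdl1, Myh11, Rbm24, BC106175, Tgfb1i1, Nrbp2, Mycl and Gm1821 lost its call in 6 to 9 of the 10 cases, always including the loss of control 1 and control 5. Their log2 fold changes kept their sign throughout. Among male embryos alone (4 controls, 3 mutants) 25 genes passed, all 34 genes kept their direction and 13 kept their call. Without control 1 and mutant 1 together 29 genes passed, 21 of them shared with the full set.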

How the data were processed

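Per the labels' protocols, polyA RNA of single lungs was made into unstranded TruSeq V2 libraries and read as single 75-base reads on a HiSeq4000. Per the submitters' processing notes the authors used STAR and the GRCm38 build (STAR version not given in the sources used here), and the deposited counts were made with featureCounts 1.6.2 at default options on GENCODE vM17, per the file headers, so multi-mapped reads and reads over 2 genes are not counted. The authors tested with DESeq2, per the series' design text.

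Here the counts as deposited were fitted with edgeR 4.0.16 in R 4.3.3 on the 10 E13.5 libraries: TMM scaling, filterByExpr with a minimum count of 10, robust quasi-likelihood F test, two-sided, Benjamini-Hochberg adjustment, threshold 0.05, no covariate. SE is the size of the log2 fold change over the square root of F. CPM use TMM-scaled totals. The stage difference is an interaction contrast over 20 lung libraries. DESeq2 1.42.0 was an alternative, as were other size factors, no filter, a stricter filter (1 CPM in 5 libraries), sex as covariate, the replicate block and each library left out. The males-only fit and the fit without control 1 and mutant 1 were added after seeing the data. The procedure was tested on simulated counts. Depth was 17.4 to 28.5 M counts per library, so genes near 1 CPM rest on few reads. Where nothing says that lungs came from separate litters, p-values measure the spread between these lungs.

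Named genes were Myocd, every called gene (predicted models by count), the 10 with the lowest adjusted p above 0.05 by value, up to 4 called members per list or the 2 most abundant per kb, and the largest stage differences at 5 CPM or more. The comparison, the 35 gene lists (703 entries) and the tests were chosen with earlier results of these data known. Of 53715 gene IDs, 53620 had a symbol in GENCODE vM21. Some results that fall under these rules are not reported here.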

Additional observations from a re-analysis of the deposited data

Results flagged for a closer look

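In 38 of 280 groups of 5 libraries checked, 1 library lay far from the other 4 (a gap of over 0.71 of the group's range). Chance flags about 1 in 20 groups.

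Mutant 5 was the high library for Asb2 (1.94 CPM), Cnn1 (14.3 CPM), Jph2 (18.1 CPM) and Myh11 (94.0 CPM). Among the called genes, control 3 was low for Acta2 (279.8 CPM), mutant 1 low for Rpl29 (70.5 CPM), control 2 low for Lgr6 (21.6 CPM) and high for Chrdl1 (8.71 CPM), and control 4 low for Gm1821 (0.675 CPM).

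Mutant 1 gave the longest run. It was high for Nkain4 (54.5 CPM), Cdkn1c (425 CPM), Rplp1 (1579 CPM), Rpl4 (3298 CPM), Rps15 (1142 CPM), Krt8 (104 CPM), Krt18 (133 CPM) and Rpl17 (1176 CPM), and low for Smo (214 CPM), Yap1 (273 CPM), Ctnnb1 (633 CPM), Col1a1 (905 CPM) and Notch3 (82.3 CPM). Its ribosomal RNA share, 0.0949% of counts, was also high among mutants. Control 2 was high for Hbb-y (3615 CPM), Eef1a1 (7832 CPM), Tgfbi (429 CPM), Slc3a2 (114 CPM), Aldh18a1 (213 CPM), globin (0.479% of counts) and summed oesophagus and stomach markers (4.61 CPM). Control 1 was low for Cth (6.03 CPM) and summed heart markers (3.31 CPM) and high for summed liver markers (3.56 CPM). Control 4 was low for Ackr2 (1.31 CPM) and high for the share of lincRNA and unconfirmed genes (1.05% of counts). Mutant 2 was low for Nkx2-1 (164 CPM), mutant 3 high for Srf (129 CPM) and mutant 4 low for Nupr1 (1.97 CPM).

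The mutant effect differed between E13.5 and E18.5 lung, by the interaction test, in Nupr1 (1.47), Mns1 (1.27), Lgr6 (-1.26) and Acta2 (-1.11), given as log2 differences, E13.5 minus E18.5. What lay behind these values was not tested.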

How the results depend on the processing

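The 34 genes past the test at E13.5 became 82 with DESeq2 (23 higher, all 34 among them) and 17 to 56 when 1 library was left out. The fewest came without control 5 and the most without mutant 1 (17 higher, 39 lower). Other splits of higher and lower were 10 and 19 without mutant 4, 9 and 16 in males, and 8 and 21 without control 1 and mutant 1, against 3 and 31. DESeq2 size factors gave 34, a stricter filter 32, no filter 44 and sex as covariate 29. With the replicate number as a block 0 passed by edgeR (526 at an unadjusted p under 0.05, smallest adjusted p 0.0503). Same-numbered libraries' deviations over all genes correlated at -0.20 to -0.01, and no library correlated best with its own number. These correlations cannot show whether same-numbered lungs shared a litter or a batch. The 5 stage differences became 1 with the replicate block and 4 to 16 when 1 E13.5 library was left out (16 without mutant 5, 11 without mutant 1). Of the fallen genes, the 4 past the test in E18.5 lung became 7 with DESeq2, 2 with the block and 1 to 4 with a library left out (1 without control 3, 2 without control 1 or 4 or mutant 4 or 6), and the 4 in the trachea 8 with DESeq2, 6 with the block and 2 to 5 with a library left out (2 without any 1 of the 4 controls or mutant 3, 5 without mutant 6). The cause was not tested. Of the 34 called genes none changed sign under any alternative. Precision is limited by few reads in the 9 fallen genes under 5 CPM and by the depth of mutant 1.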
